A study of Homo sapiens with 14 samples.

Results

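Natural killer cells read the surface of other cells through activating and inhibitory receptors, and 9 genes that encode ligands of their activating receptors were followed through 14 human neuroblastoma cell lines. The genes, named by symbol in the count table and making up 9 of its 20049 rows, were MICA, MICB, ULBP1, ULBP2, ULBP3, RAET1E, RAET1G, PVR and NCR3LG1. RNA of each line was sequenced as 1 library, from cells cultured in RPMI1640 or DMEM with serum and given no treatment that the labels name. The lines were SH-SY5Y, SK-N-SH, IMR5-75, IMR32, NGP, LS, NBL-S, Lan-6, GI-ME-N, CLB-GA, SK-N-FI, SK-N-DZ, SK-N-BE(2)C and SK-N-AS, established cultures of a childhood tumour of the sympathetic nervous system. SH-SY5Y is known as a neuroblast-like subclone of SK-N-SH, a culture of mixed cell shapes, and IMR5-75 as a subclone of IMR32, facts that the labels do not give. The series concerns telomere damage, tumour immunogenicity and treatment against PD-L1, and its labels sort the lines into no classes.

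MICA, MICB and the ULBP and RAET1 proteins are relatives of MHC class I molecules that bind NKG2D, an activating receptor of natural killer cells and some T cells. They are known to be low on most healthy cells and to rise on stressed, infected or transformed ones. PVR (CD155) is an adhesion molecule that binds the activating receptor DNAM-1 and the inhibitory receptor TIGIT, and NCR3LG1 (B7-H6) is a member of the B7 family that binds the activating receptor NKp30. Signals from these receptors are weighed against inhibition by MHC class I on the same target, and neuroblastoma cells are known for low MHC class I.

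Positions are on GRCh38. MICA (chr6:31399784-31415315) and MICB (chr6:31494881-31511124) lie on the plus strand in the MHC region. The other NKG2D ligands form a cluster on the same chromosome, with RAET1E (chr6:149883375-149898102, minus strand), RAET1G (chr6:149916878-149923121, minus), ULBP2 (chr6:149942000-149949235, plus), ULBP1 (chr6:149964007-149973710, plus) and ULBP3 (chr6:150063150-150069095, minus). PVR lies at chr19:44643798-44663583 and NCR3LG1 at chr11:17351726-17377341, both on the plus strand.

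Promoters of the 5 members on which the results below turn are printed so that the sequence around each start can be set beside its levels. Each window is the RefSeq stretch of 250 bases before to 50 bases after a gene start on GRCh38.p14, on the plus strand and read 5′ to 3′: MICA at chr6:31403345-31403644, MICB at chr6:31497895-31498194, ULBP1 at chr6:149963693-149963992, ULBP2 at chr6:149941764-149942063 and NCR3LG1 at chr11:17351550-17351849. Capitals mark matches, on either strand, to the heat shock element GAANNTTC, the GC box GGGCGG, the CCAAT box CCAAT, the E-box CACGTG, the AP-1 site TGANTCA or the cAMP response element TGACGTCA.

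MICA: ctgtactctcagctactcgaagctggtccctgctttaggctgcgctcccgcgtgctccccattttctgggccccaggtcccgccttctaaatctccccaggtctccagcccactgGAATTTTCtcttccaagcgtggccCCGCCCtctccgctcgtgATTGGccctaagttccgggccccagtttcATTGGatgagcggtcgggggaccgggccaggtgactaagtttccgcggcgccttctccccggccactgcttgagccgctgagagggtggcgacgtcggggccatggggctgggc
MICB: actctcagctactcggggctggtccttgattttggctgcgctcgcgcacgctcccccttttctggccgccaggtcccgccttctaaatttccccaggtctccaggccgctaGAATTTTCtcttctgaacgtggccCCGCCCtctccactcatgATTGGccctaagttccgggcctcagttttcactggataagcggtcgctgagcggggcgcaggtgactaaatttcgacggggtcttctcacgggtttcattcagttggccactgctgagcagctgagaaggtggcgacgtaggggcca
ULBP1: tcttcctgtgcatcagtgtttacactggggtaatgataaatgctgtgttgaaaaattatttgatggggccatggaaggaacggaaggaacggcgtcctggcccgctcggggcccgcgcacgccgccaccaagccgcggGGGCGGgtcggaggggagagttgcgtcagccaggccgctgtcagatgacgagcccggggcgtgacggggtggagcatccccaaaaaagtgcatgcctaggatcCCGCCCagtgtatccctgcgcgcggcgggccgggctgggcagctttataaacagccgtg
ULBP2: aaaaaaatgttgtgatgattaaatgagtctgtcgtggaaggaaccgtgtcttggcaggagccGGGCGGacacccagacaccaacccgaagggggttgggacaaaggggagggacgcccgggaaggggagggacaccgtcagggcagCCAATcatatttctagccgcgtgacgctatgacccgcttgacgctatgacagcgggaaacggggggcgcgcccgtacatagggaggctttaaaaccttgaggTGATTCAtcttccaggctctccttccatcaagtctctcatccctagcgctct
NCR3LG1: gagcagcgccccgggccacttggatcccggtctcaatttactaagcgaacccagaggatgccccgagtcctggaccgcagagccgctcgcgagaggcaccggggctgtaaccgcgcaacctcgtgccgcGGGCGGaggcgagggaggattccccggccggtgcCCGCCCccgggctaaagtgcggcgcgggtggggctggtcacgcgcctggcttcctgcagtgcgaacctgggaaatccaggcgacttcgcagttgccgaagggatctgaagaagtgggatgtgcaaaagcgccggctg

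The MICA and MICB windows were alike in order as well as in letters, with 246 identical bases in 316 aligned columns (77.85%). Each held a heat shock element (starting at base 116 in MICA and 112 in MICB), followed by a GC box and a CCAAT box, and MICA had a second CCAAT box. Heat shock elements, bound by heat shock factors, were present in 6.77% of 35116 promoter windows of the same length. GC boxes, bound by SP1 and its relatives, were present in 45.0% and CCAAT boxes in 34.6%. ULBP1 held 2 GC boxes. ULBP2 held a GC box, a CCAAT box and a match to the AP-1 pattern, with the letters TGATTCA. That pattern takes any base in the middle and matched in 7.71% of windows, and stricter forms were not counted. NCR3LG1 held 2 GC boxes and none of the other motifs, the E-box read by MYC proteins (7.26% of windows) among them. The cAMP response element (1.85% of windows) matched in none of the 5. A match describes letters in a window and is not a bound site.

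Library totals ran from 35856642 estimated counts in Lan-6 to 58644013 in LS. Levels are CPM, the usual scale of counts relative to library size, with TMM scaling, and the 95% Poisson intervals and the limits on counts of 0 cover counting error only. No line had a replicate, so a difference between a pair of lines has no replicate check. GI-ME-N and Lan-6 stood apart in how a gene's deviation followed its transcript length (Spearman's rho -0.34 and -0.38, against -0.08 to 0.22 in the other libraries) and Lan-6 also in how it followed GC content (rho 0.64, with 0.24 in GI-ME-N and -0.36 to -0.02 elsewhere). Both trends were removed together as an alternative, so their parts cannot be told apart, and those values are called trend-corrected where they are given. Of 6 neuroblastoma markers, 4 (GI-ME-N) to 6 reached 1 CPM, with sums that were lowest in SK-N-SH (301.7 CPM) and highest in CLB-GA (4873 CPM). TH, the rate-limiting enzyme of catecholamine synthesis, had 0 counts in SK-N-SH, but it reached 1 CPM in only 7 lines. Among the lines below that level were SH-SY5Y (0.551 CPM), NGP (0.753 CPM) and IMR5-75 (0.266 CPM). SK-N-SH held 5 of the 6 markers at 1 CPM or more. Of 12 leukocyte markers, 1 to 5 reached 1 CPM in any line, and CD3E and GZMB stayed at or below 0.0683 CPM. Their sum was lowest in GI-ME-N at 5.24 CPM and at most 18.2 CPM elsewhere, apart from 478.5 CPM in SK-N-AS, of which PTPRC gave 469.6 CPM. The 4 endothelial markers summed to at most 10.1 CPM in any line, and to 0.651 CPM in GI-ME-N.

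Most lines carried a few of the ligand transcripts at a time. PVR and NCR3LG1 were at 1 CPM or more in all 14 lines, MICA in 12, ULBP1 in 9, ULBP2 and ULBP3 in 5 each, MICB in 4, RAET1G in 2 and RAET1E in none. GI-ME-N, SK-N-FI and SK-N-SH each held 7 of the 9 at this level, IMR5-75 held 6 and Lan-6 only PVR and NCR3LG1. Per kilobase of transcript, the scale on which genes can be compared with each other, PVR was the most abundant of the 9 in 7 lines, NCR3LG1 in 6 and MICA in GI-ME-N, where it stood at 19.0 CPM per kb beside 18.0 CPM per kb for PVR. Trend-corrected, PVR led in 9 lines, GI-ME-N among them (14.4 CPM per kb, against 13.7 for MICA), and NCR3LG1 in 5.

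**Figure D1:**
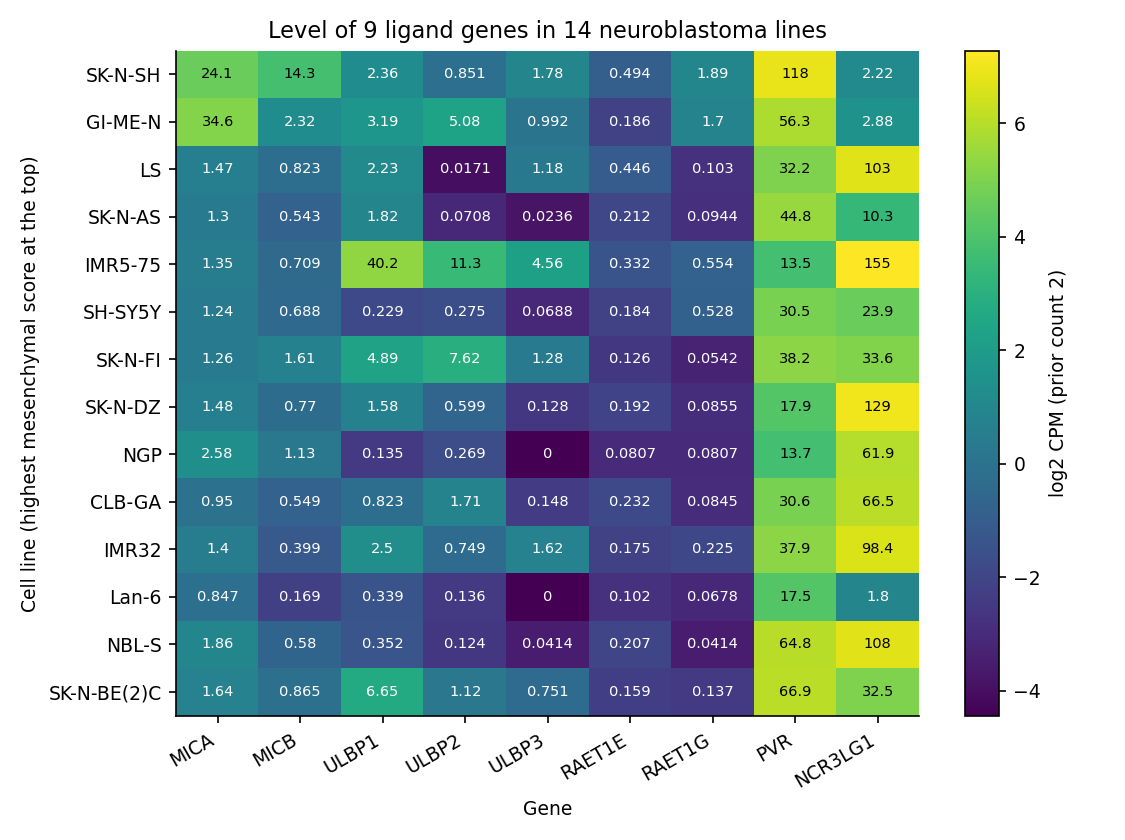
Level of each ligand gene in each of the 14 lines, with colour for log2 CPM (prior count 2) and the CPM printed in each cell. Lines run from the highest mesenchymal score (SK-N-SH) down to the lowest (SK-N-BE(2)C). MICA stands out in the upper 2 rows, ULBP1, ULBP2 and ULBP3 in IMR5-75, and NCR3LG1 is darkest in Lan-6, SK-N-SH and GI-ME-N.

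The summed transcripts of the NKG2D ligands were highest in IMR5-75, GI-ME-N and SK-N-SH, lower in SK-N-FI and graded down over the rest. Added up per kilobase over the 7 genes, they came to 28.4 CPM per kb in IMR5-75, 27.6 in GI-ME-N and 24.9 in SK-N-SH. SK-N-FI had 10.2, SK-N-BE(2)C 5.37 and IMR32 4.56, against a median of 3.30 and a low of 0.917 CPM per kb in Lan-6. Trend-corrected, the sum was 20.1 CPM per kb in GI-ME-N and SK-N-SH, at 24.2, was above it. The 4 lines at the top did not share a leading ligand. MICA made up 68.7% of the sum in GI-ME-N and 53.1% in SK-N-SH, ULBP1 45.1% in IMR5-75, and ULBP2 55.2% in SK-N-FI. Over all lines MICA was the leading NKG2D ligand in 8, and ULBP1, ULBP2 and ULBP3 in 2 each.

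MICA, a stress-induced ligand of NKG2D, was present at a low and even level in 12 lines and high in the remaining 2. It stood at 34.6 CPM in GI-ME-N (interval 32.6 to 36.7, from 1116 counts) and at 24.1 CPM in SK-N-SH (22.5 to 25.7, from 878 counts). NGP followed at 2.58 CPM, and the remaining 11 lines ran down to 0.847 CPM in Lan-6, around a 14-line median of 1.44 CPM. Of the 13 steps between neighbouring lines, only those from GI-ME-N to SK-N-SH and from SK-N-SH to NGP were wider than the counting intervals. Trend-corrected, the upper 2 lay closer, with GI-ME-N at 24.96 CPM and SK-N-SH at 23.6 CPM.

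MICB, the close relative of MICA, was high in SK-N-SH alone, at 14.3 CPM (13.1 to 15.6). GI-ME-N was next at 2.32 CPM, then SK-N-FI at 1.61 and NGP at 1.13 CPM, over a median of 0.739 and a low of 0.169 CPM in Lan-6 (5 counts). GI-ME-N thus had the most MICA but less MICB than SK-N-SH by more than the counting intervals. MICB shared 8.08% of its 31-base stretches, the length at which reads are commonly matched to transcripts, with MICA, and 15.0% with any other gene. MICA is also highly polymorphic, and how alleles that differ from the annotation were counted was not tested.

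The ULBP genes, which encode NKG2D ligands held in the membrane by a lipid anchor, peaked in other lines. ULBP1 reached 40.2 CPM in IMR5-75 (38.4 to 42.1), followed by 6.65 CPM in SK-N-BE(2)C and 4.89 CPM in SK-N-FI, with a median of 2.02 and a low of 0.135 CPM in NGP (5 counts). ULBP2 reached 11.3 CPM in IMR5-75, 7.62 in SK-N-FI and 5.08 in GI-ME-N, over a median of 0.674 CPM and a low of 0.0171 CPM in LS, which is 1 count. ULBP3 was highest in IMR5-75 at 4.56 CPM, lay between 1.18 and 1.78 CPM in SK-N-SH, IMR32, SK-N-FI and LS, and had 0 counts in Lan-6 and NGP, which allows up to 0.102 and 0.0807 CPM (3 counts). All 3 were therefore highest in the same line, while the lines that followed it differed. Of the 13 steps between neighbours, 5 were wider than the counting intervals for ULBP1, 3 for ULBP2 and 2 for ULBP3. ULBP2 shared 44.2% of its 31-base stretches with other genes, 41.7% with RAET1L, which was not analysed here, so reads of that pair cannot be told apart there. ULBP1 shared 13.9% and ULBP3 17.4% of theirs, mostly with the pseudogene RAET1K, and RAET1G shared 19.8%, so these levels carry the same uncertainty to a lesser extent.

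The RAET1 genes, which encode membrane-spanning NKG2D ligands, were scarce. SK-N-SH had RAET1G at 1.89 CPM and GI-ME-N at 1.70 CPM, or 1.11 CPM after the trend correction. The gene was at 0.554 CPM in IMR5-75 and 0.528 CPM in SH-SY5Y, and at or below 0.225 CPM in the other 10 lines. The pair of lines that led for MICA thus led for RAET1G too. RAET1E ran from 0.0807 CPM in NGP to 0.494 CPM in SK-N-SH, with no step between neighbours wider than the counting intervals, and 40.1% of its 31-base stretches also occur in the overlapping gene AL355312.5. At this depth its order among lines was not detectable.

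PVR was the steadiest of the abundant ligands. SK-N-SH had 117.7 CPM (114.2 to 121.2), SK-N-BE(2)C 66.9, NBL-S 64.8 and GI-ME-N 56.3 CPM, around a median of 35.0 CPM, and the lowest were Lan-6 at 17.5, NGP at 13.7 and IMR5-75 at 13.5 CPM. Trend-corrected, Lan-6 was the lowest, at 12.8 CPM. The range from the highest to the lowest line was 8.71-fold, and 7 of 13 steps were wider than the counting intervals. NECTIN2, which encodes the other main ligand of DNAM-1, ranged far more widely, from 3 counts (0.0749 CPM) in IMR32 to 209.1 CPM in GI-ME-N, and reached 1 CPM in 9 lines. IMR32, with NECTIN2 near absent, held PVR at 37.9 CPM, close to the PVR median.

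NCR3LG1 was highest in IMR5-75 at 154.9 CPM (151.3 to 158.6), followed by SK-N-DZ at 129.4, NBL-S at 108.1, LS at 103.3 and IMR32 at 98.4 CPM, with a median of 47.7 CPM. SK-N-AS had 10.3 CPM, and the lowest were GI-ME-N at 2.88, SK-N-SH at 2.22 and Lan-6 at 1.80 CPM, or 2.76 CPM in Lan-6 after the trend correction. The 3 lowest lines overlapped within their intervals and lay apart from the rest. The highest line exceeded the lowest 86.2-fold. Only 0.312% of the 31-base stretches of NCR3LG1 occur elsewhere, so its values depend least on reads shared with other genes.

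The spread between lines was set beside that of the 15376 genes that averaged 1 CPM or more, a filter that ULBP3, RAET1E and RAET1G did not meet. The SD of log2 CPM over the 14 lines was 2.29 for ULBP2, 2.25 for NCR3LG1, 2.08 for ULBP1, 1.62 for MICA, 1.39 for MICB and 0.92 for PVR, against a median of 0.80 over those genes. The 3 members below the filter had SDs of 2.26 (ULBP3), 1.496 (RAET1G) and 0.59 (RAET1E).

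Pairs of members differed in how far they rose and fell together over the 12 lines left when the subclones SH-SY5Y and IMR5-75 are set aside. Of 36 pairs, 27 had a positive Pearson r of log2 CPM, the median was 0.41, and 4 reached 0.7. MICA and MICB had r = 0.81 (Spearman's rho 0.71), and 0.58 without SK-N-SH and GI-ME-N. Leaving out GI-ME-N and SK-N-SH together turned the sign of 13 of the 36, 8 of them pairs with NCR3LG1, among which MICA and NCR3LG1 had r = -0.55 (rho 0.0) over the 12 lines and 0.55 without that pair of lines. MICA and RAET1G had r = 0.93 with a rho of only 0.45, and 0.01 without that pair of lines, so their likeness rested on it, as did that of MICB and RAET1G (0.75, and -0.16 without the pair). ULBP1 and ULBP3 had r = 0.82 (rho 0.76), and 0.82 without the pair as well. These are descriptions over lines with 1 library each, whose depth and transcript-length trends enter both members of a pair, and no test was made. How often pairs of other genes reached such r, or changed sign, was not counted.

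Over the same 12 lines, the genes whose levels were most like each member among 12532 candidates with a mean of at least 5 CPM were ranked by r. MICA was closest to MLPH (0.98), NNMT (0.98) and EMP1 (0.98), and MICB to LRP11 (0.96), TRIM22 (0.93) and PLAT (0.93). LRP11 is a neighbour of the ULBP cluster. ULBP1 was closest to ZW10 (0.89), PTS (0.86) and DCUN1D5 (0.85), and ULBP3 to ZW10 (0.95), ARCN1 (0.93) and EI24 (0.90). ULBP2 was closest to RAB21 (0.89), PBX3 (0.88) and GIT2 (0.85). PVR was closest to TMEM165, RHBDF2 and MB21D2 (0.85, 0.85 and 0.84), and NCR3LG1 to ZNF519 (0.96), ETNK1 (0.96) and SCML2 (0.95). Many more genes came close, since the gene ranked 50 still had r = 0.90 for MICA and NCR3LG1, and 0.85 for MICB. For the other members named here it had 0.73 (ULBP2) to 0.77 (ULBP3). No test was made, and r without SK-N-SH and GI-ME-N, the lines high in MICA, was not computed for these genes.

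Neuroblastoma lines are known to occupy an adrenergic, neuroblast-like state or a mesenchymal one, and the ligands were set against this axis. The mesenchymal score is the mean centred log2 CPM of 14 genes such as VIM, FN1, YAP1 and CD44. It was 6.10 in SK-N-SH and 5.10 in GI-ME-N, then 1.83 in LS and 1.61 in SK-N-AS, and at most -0.66 in the other 10 lines. A slope on the score, in log2 units per SD, was fitted over the 12 lines with edgeR's quasi-likelihood test for 18289 genes, and Benjamini-Hochberg adjusted p-values under 0.05 were called. The p-values measure the spread between lines, each with 1 library.

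MICA and MICB rose with the mesenchymal score, 2 of the 8 members tested, against 3.49% of all genes rising and 2.14% falling. MICA had a slope of 1.57 (SE 0.24, adjusted p = 0.00209, edgeR) and MICB of 1.31 (SE 0.25, adjusted p = 0.00957, edgeR). The other 6 did not pass: RAET1E had 0.47 (SE 0.21, adjusted p = 0.228, edgeR), ULBP3 0.58, ULBP2 0.41, PVR 0.39 and ULBP1 0.10, and NCR3LG1 had -1.38 (SE 0.65, adjusted p = 0.249, edgeR). RAET1G was too low to be tested in this fit. It was called with no filter and with all 14 lines, a set that counts the subclones beside their parents. The median slope of the 8 was 0.44, beside -0.04 for all genes.

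Both calls rested on the upper 2 lines of the score. Without SK-N-SH and GI-ME-N, the MICA slope was -0.04 (adjusted p = 0.987, edgeR) and the MICB slope 0.13 (adjusted p = 0.967, edgeR). LS and SK-N-AS, which came next on the score, had MICA at 1.47 and 1.30 CPM and MICB at 0.823 and 0.543 CPM, inside the range of the lower lines. The MICB call was also lost without SK-N-SH alone (slope 0.50, adjusted p = 0.368, edgeR), while the MICA call held in each set of 11 lines. Neuroblastoma marker sums were lowest in the same 2 lines, with 444.5 CPM in GI-ME-N beside the 301.7 CPM of SK-N-SH, and the part of cell makeup in these levels was not tested, since in bulk RNA more cells of a type and more RNA per cell cannot be told apart.

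**Figure D2:**
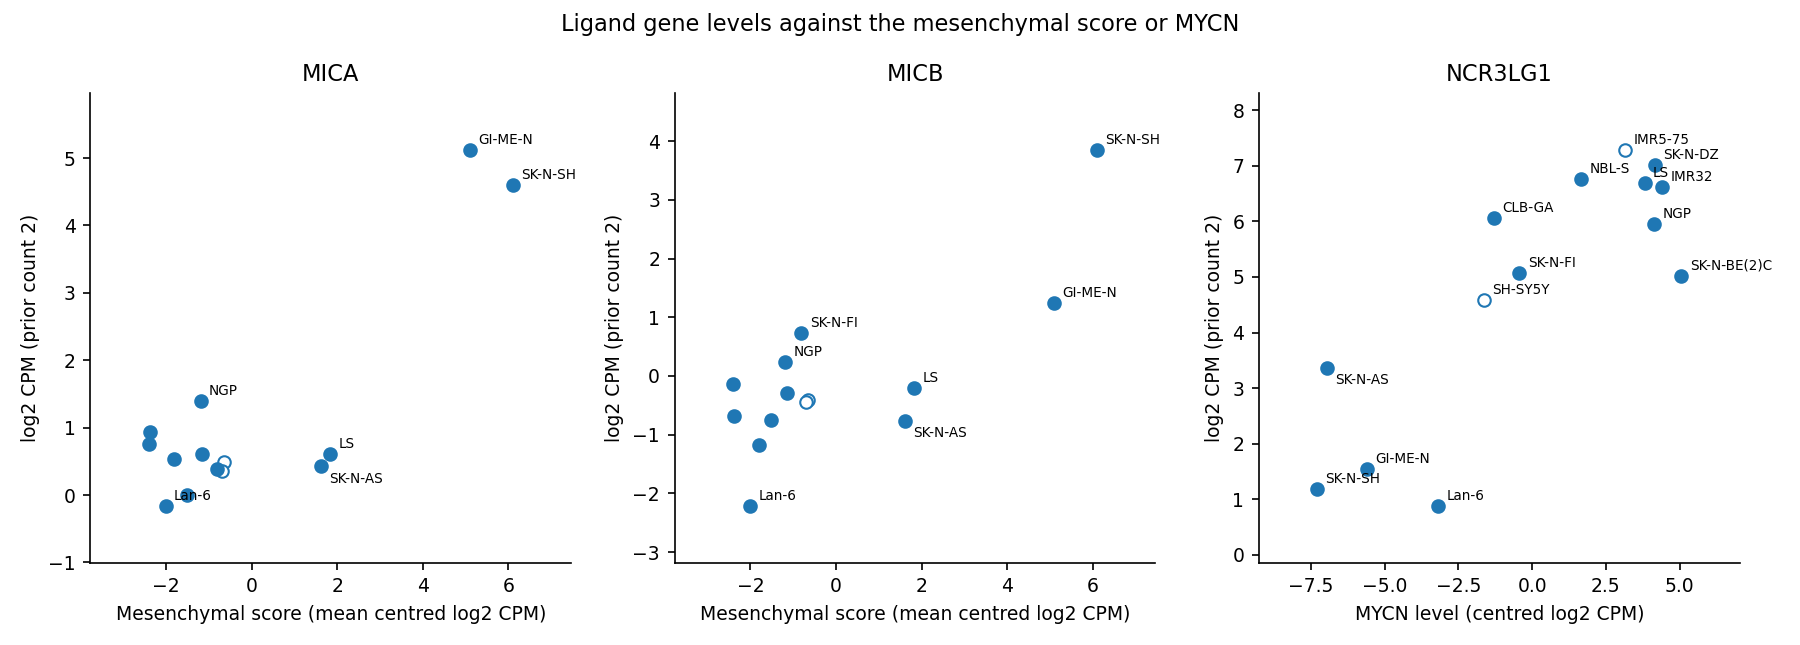
log2 CPM (prior count 2) of MICA and MICB against the mesenchymal score, and of NCR3LG1 against the centred log2 CPM of MYCN, with 1 point per line. Filled points are the 12 lines in the fits and open points the subclones SH-SY5Y and IMR5-75. GI-ME-N and SK-N-SH stand apart for MICA, SK-N-SH for MICB, and NCR3LG1 is low in the 4 lines with the least MYCN.

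MYCN, the driver amplified in many aggressive neuroblastomas, was lowest in SK-N-SH (0.384 CPM) and highest in SK-N-BE(2)C (2245 CPM), and was the next axis. NCR3LG1 rose with the MYCN level, by 1.77 log2 units per SD (SE 0.44, adjusted p = 0.0477, edgeR), 1 of 8 members where 1.06% of 18302 genes rose and 2.32% fell. The 4 lines with the lowest MYCN, SK-N-SH, SK-N-AS, GI-ME-N and Lan-6, were also the 4 lowest for NCR3LG1, at 1.80 to 10.3 CPM, and the other 8 lines in the fit had 32.5 CPM or more. MICA (slope -1.42, SE 0.39, adjusted p = 0.0618, edgeR) and MICB (-1.13, SE 0.36, adjusted p = 0.0887, edgeR) did not pass. ULBP2 had a slope of -0.74, PVR -0.35, RAET1E -0.19, ULBP1 0.14 and ULBP3 -0.08, none of which passed either.

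The NCR3LG1 call lay close to the threshold. Its slope was positive under each of 22 alternatives, from 1.14 to 1.95, and its adjusted p ran from 5.83e-05 (DESeq2) to 0.273 (without SK-N-SH and GI-ME-N), passing in 10 of them. Among the sets of 11 lines it was lost without GI-ME-N, IMR32, LS, NBL-S, NGP, SK-N-DZ, SK-N-FI or SK-N-SH, at slopes between 1.45 and 1.85. The MYCN level and the mesenchymal score were themselves opposed over the 12 lines (r = -0.68), so the parts of the 2 in these slopes cannot be told apart here.

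TERT, the catalytic subunit of telomerase, was the axis closest to the subject of the series. No member passed the scan on its level with edgeR, DESeq2 or limma, and edgeR called 0.0% of 18302 genes. MICA alone of the 8 members had an unadjusted p under 0.05 (slope 1.29, SE 0.48, adjusted p = 0.631, edgeR), as did 1285 of all genes. GI-ME-N held the most of both MICA and TERT, with TERT at 68.5 CPM. The other 7 members had slopes from -0.45 (ULBP1) to 0.62 (NCR3LG1).

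**Figure D3:**
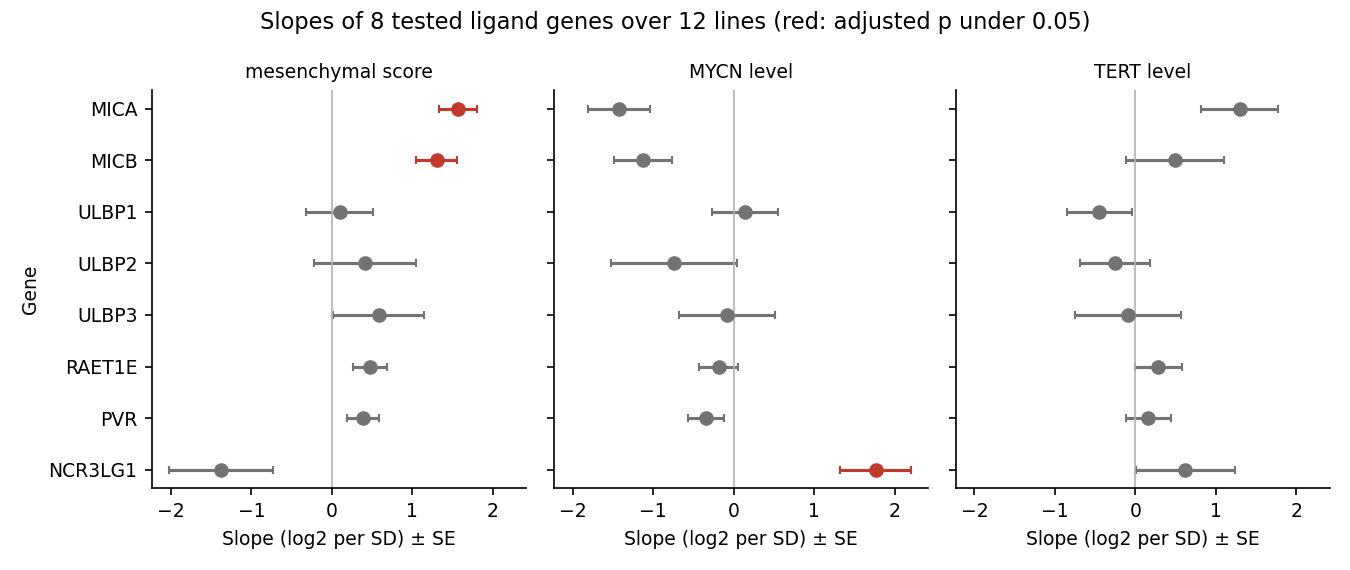
Slopes of the 8 tested ligand genes on each of the 3 levels, in log2 units per SD over 12 lines, with bars for the SE. Red points mark an adjusted p under 0.05 over all genes tested, which were MICA and MICB on the mesenchymal score and NCR3LG1 on MYCN.

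Other genes of the same recognition system were counted from lists. Of 8 further tested ligands of activating receptors, 2 rose with the mesenchymal score and 0 fell, where 3.49% of all genes rose and 2.14% fell. CALR, a chaperone that serves NKp46 as a ligand at the cell surface, rose by 0.72 (SE 0.20, adjusted p = 0.0486, edgeR), and ICAM1, the adhesion partner of LFA-1, by 1.88 (SE 0.29, adjusted p = 0.00246, edgeR). The CALR call was kept in 2 of the 12 sets of 11 lines, those without Lan-6 or LS, and the ICAM1 call in all but the set without SK-N-SH. With limma on the deposited log2 values neither was called, and NID1 alone of the 8 was. DESeq2 called 4 of the 8, CALR, CD58, ICAM1 and NID1. Of all genes, limma called 1027 and DESeq2 2907. ICAM1 reached 16.7 CPM in SK-N-SH but only 0.248 CPM in GI-ME-N. With MYCN, CALR fell (slope -0.93, adjusted p = 0.0265, edgeR), a call kept in 7 of 12 sets of 11 lines, and none of the 8 rose. Of all genes, 2.32% fell with MYCN and 1.06% rose.

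Of 15 tested ligands of inhibitory receptors, 2 rose with the mesenchymal score and 1 fell, and 12 did not pass. Of all genes, 3.49% rose and 2.14% fell. HLA-E, the ligand of NKG2A, rose by 2.97 (SE 0.53, adjusted p = 0.00546, edgeR), and reached 172.5 CPM in SK-N-SH, with SK-N-AS at 31.6, LS at 14.5 and GI-ME-N at 8.89 CPM, against a median of 2.10 CPM. CD274, which encodes PD-L1, rose by 2.31 (adjusted p = 0.0152, edgeR), with SK-N-SH at 95.04 CPM and GI-ME-N at 31.5 CPM, against a median of 0.878 CPM. CDH4, a cadherin, fell (slope -2.09, adjusted p = 0.0391, edgeR). Without SK-N-SH alone all 3 calls were lost and NECTIN1 was called, and the CDH4 call was kept only in the 3 sets of 11 lines without Lan-6, NGP or SK-N-FI. With limma CDH4 was not called and NECTIN1 was. DESeq2 kept the 3 calls and added LGALS9 and NECTIN1. Of all genes, limma called 1027 and DESeq2 2907 on this score. With MYCN, CD274 fell (slope -2.66, adjusted p = 0.0403, edgeR), a call lost in 9 of 12 sets of 11 lines, and no other of the 15 passed with edgeR. The CD274 call was lost with limma and kept with DESeq2, which also called CDH4 and HLA-E. Of all genes, edgeR called 1.06% rising with MYCN and 2.32% falling, limma called 380 genes and DESeq2 3226.

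Of 8 genes linked to the shedding of NKG2D ligands from the cell surface, 3 rose with the mesenchymal score and 0 fell. Of all genes, 3.49% rose and 2.14% fell. ADAM9, a membrane protease, rose by 1.43 (SE 0.19, adjusted p = 0.00082, edgeR), with SK-N-SH at 505.6 CPM and GI-ME-N at 445.1 CPM, against a median of 45.6 CPM. MMP14, a membrane-bound matrix protease, rose by 3.40 (SE 0.56, adjusted p = 0.00353, edgeR), and PDIA6, a disulfide isomerase known to act on MICA before cleavage, by 0.54 (adjusted p = 0.0232, edgeR). The ADAM9 and MMP14 calls were kept in all 12 sets of 11 lines, and the PDIA6 call was lost without GI-ME-N, NBL-S or SK-N-SH. PDIA6 alone of the 8 fell with MYCN (slope -0.54, adjusted p = 0.0383, edgeR), where 2.32% of all genes fell, and this call was lost in 8 of 12 sets. It was also lost with limma, which called 380 of all genes. DESeq2, which called 3226, kept it and added ADAM9 and MMP14. ADAM10 and ADAM17, the proteases best known for releasing MICA, had slopes of 0.08 and 0.05 on the mesenchymal score and did not pass.

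Of 18 regulators known to act on ligand genes, none passed on the mesenchymal score with edgeR or limma. DESeq2 called 1, NFKB1. With edgeR 2 of the 18 had an unadjusted p under 0.05, as did 3797 of all 18289 genes. Of all genes, edgeR called 3.49% rising and 2.14% falling. RELA, a subunit of NF-kappaB, alone of the 18 fell with MYCN (slope -0.61, adjusted p = 0.0336, edgeR), where 2.32% of all genes fell. This call was lost in 8 of 12 sets. Without SK-N-SH and GI-ME-N, edgeR called 0 genes of these 4 lists on the mesenchymal score or MYCN. Between 1 and 4 genes of a list then had an unadjusted p under 0.05. Of all genes, only 16 then passed on the mesenchymal score and 0 on MYCN, so these counts say little about the lists. On TERT, 0 genes of the lists passed with edgeR, limma or DESeq2, and at most 3 of a list had an unadjusted p under 0.05 with edgeR. Of all 18302 genes, 1285 had an unadjusted p under 0.05 on TERT with edgeR. There edgeR and limma called 0 of all genes as well.

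The subclones were set beside their parent lines to ask how far ligand levels differ between cultures of a shared origin. SH-SY5Y had far less of most ligands than SK-N-SH. Of 7 members with at least 1 CPM in either line, 6 were lower by at least 2-fold and 1 was higher, where 19.0% of 15062 genes were lower and 18.4% higher to that extent. MICA stood at 1.24 CPM in SH-SY5Y against 24.1 in SK-N-SH, a ratio of 0.0514 (95% counting interval 0.0383 to 0.0677), and MICB at 0.688 against 14.3 CPM, a ratio of 0.0481 (0.0321 to 0.0696). Both MIC genes were thus at the level of the lower lines in the subclone.

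ULBP1 was at 0.229 CPM in SH-SY5Y against 2.36 CPM in SK-N-SH (ratio 0.0972), and ULBP3 had 3 counts in SH-SY5Y against 65 in SK-N-SH (ratio 0.0386, interval 0.00776 to 0.118). RAET1G was at 0.528 CPM in SH-SY5Y against 1.89 CPM in SK-N-SH (ratio 0.279), and PVR at 30.5 against 117.7 CPM (ratio 0.26). NCR3LG1 differed in the other direction, at 23.9 CPM in SH-SY5Y against 2.22 CPM in SK-N-SH, which is 10.7-fold higher (8.56 to 13.6). Of 12 ligands of inhibitory receptors with at least 1 CPM in either line, 8 were at least 2-fold lower in SH-SY5Y and 3 higher (CLEC2D, NECTIN1 and LGALS9). Of all genes, 19.0% were lower and 18.4% higher to that extent. HLA-C was at 7.46 CPM in SH-SY5Y against 287.0 in SK-N-SH, HLA-E at 2.23 against 172.5, and B2M at 53.1 against 507.3 CPM. NECTIN1 was at 69.9 CPM in SH-SY5Y against 30.4 CPM in SK-N-SH.

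IMR5-75 differed from IMR32 in another group of ligands. Of 6 members with at least 1 CPM in either line, 3 were at least 2-fold higher and 1 lower, where 17.3% of 15179 genes were higher and 14.7% lower. ULBP1 stood at 40.2 CPM in IMR5-75 against 2.50 CPM in IMR32, a ratio of 16.1 (13.2 to 19.9). ULBP2 was at 11.3 CPM in IMR5-75 against 0.749 CPM in IMR32, a ratio of 15.2 (10.5 to 22.7), and ULBP3 at 4.56 against 1.62 CPM, a ratio of 2.81 (2.12 to 3.78). The ULBP genes were thus the raised ligands, while MICA differed by less than counting error, at 1.35 CPM in IMR5-75 and 1.40 CPM in IMR32 (ratio 0.967, interval 0.662 to 1.42).

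PVR was lower, at 13.5 CPM in IMR5-75 against 37.9 CPM in IMR32 (ratio 0.357), and NCR3LG1 was at 154.9 against 98.4 CPM (ratio 1.57), short of 2-fold. Of 13 ligands of inhibitory receptors, 5 were at least 2-fold higher in IMR5-75 and 4 lower, beside 17.3% and 14.7% of all genes. HLA-B was at 6.36 CPM in IMR5-75 against 0.225 in IMR32, HLA-C at 14.6 against 0.2, and HLA-E at 5.72 against 0.274 CPM, whereas B2M, the shared light chain, was at 84.7 against 166.5 CPM. The HLA genes share sequence and are polymorphic, so the division of reads among them is uncertain. MICA and MICB, which lie in the same region of chromosome 6 as these HLA genes, did not reach 2-fold in this pair, MICB having 32 counts in IMR5-75 and 16 in IMR32.

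**Figure D4:**
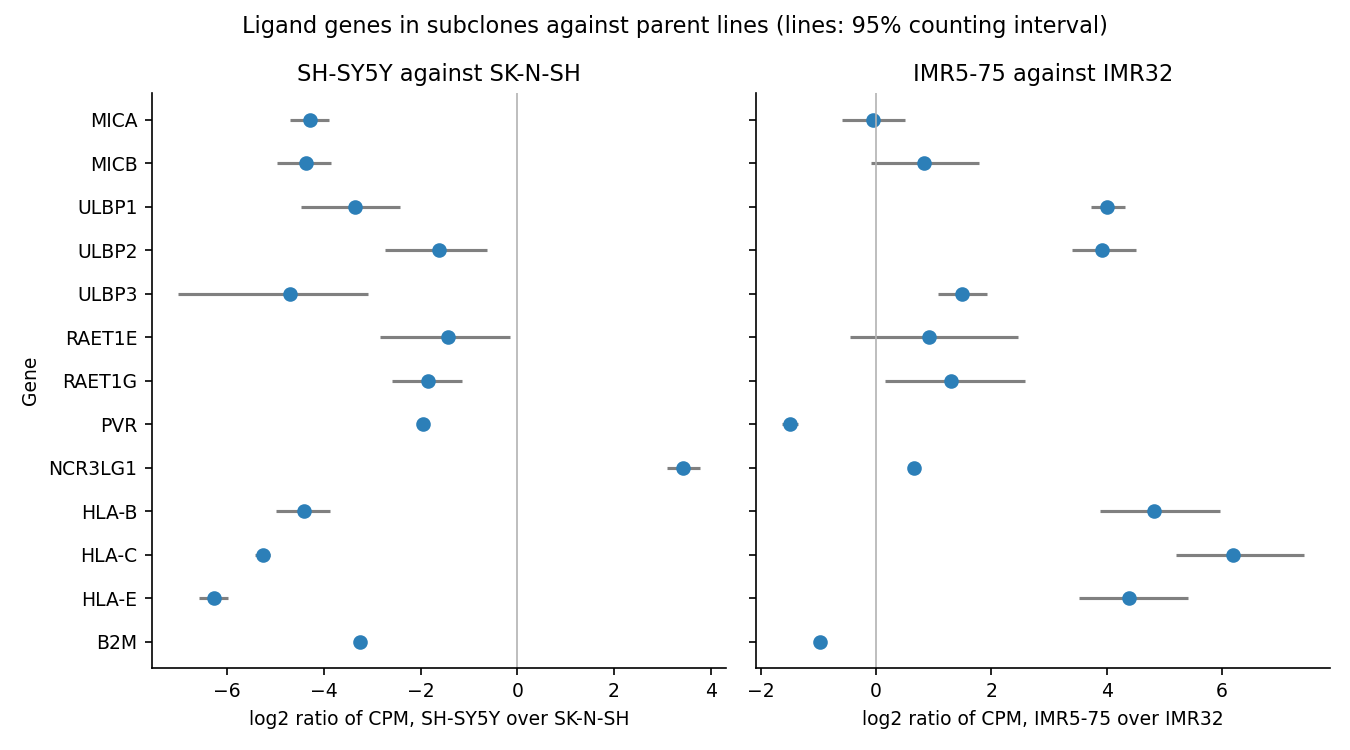
log2 ratio of CPM for the 9 ligand genes, 3 HLA genes and B2M in SH-SY5Y over SK-N-SH (left) and IMR5-75 over IMR32 (right), with lines for the 95% counting interval. In SH-SY5Y only NCR3LG1 lies right of 0, and in IMR5-75 ULBP1 and ULBP2 lie near 4 while PVR lies left of 0.

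Since ULBP1, ULBP2 and ULBP3 are neighbours, the genes around them were compared in the same pair. Within 1000 kb of the ULBP1 start, 17 genes had at least 1 CPM in IMR5-75 or IMR32, and 4 of them belonged to the cluster. RAET1G and RAET1E, also of the cluster, fell below that level in both lines and are not among the 17. Beside the 3 ULBP genes, the pseudogene RAET1K had 170 counts in IMR5-75 against 7 in IMR32, a ratio of 21.6 (10.2 to 54.4). RAET1K shares 12.6% of the 31-base stretches of ULBP1, so part of its count may not be its own. The 13 other genes had a median ratio of 1.53, from 0.849 (PCMT1) to 9.64 (PLEKHG1). Over the 15179 genes compared in this pair the median log2 ratio was -0.013, close to equal levels. The neighbours as a set thus lay above the typical gene. Of the 13, 2 were at least 2-fold higher, beside 17.3% of all genes.

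The raised level was therefore not even over the window. PLEKHG1, 635.9 kb beyond the ULBP1 start, was at 15.6 CPM in IMR5-75 against 1.62 CPM in IMR32. LRP11, on the other side of the cluster at -145.2 kb, was at 59.2 against 30.2 CPM (ratio 1.96). RPS18P9, a pseudogene, was the only other gene at 2-fold or more (ratio 2.39), and the other 11 genes lay between 0.849 and 1.96.

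**Figure D5:**
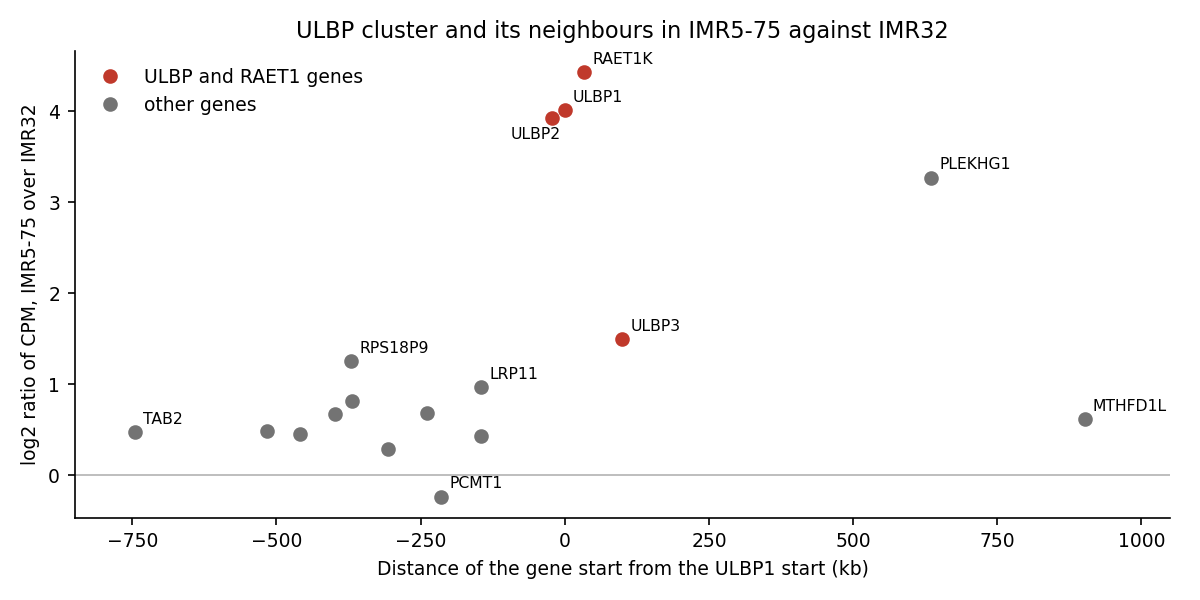
log2 ratio of CPM, IMR5-75 over IMR32, for 17 genes by the distance of their start from the ULBP1 start in kb. Red points are ULBP and RAET1 genes and grey points other genes. ULBP1, ULBP2 and RAET1K lie near 4, ULBP3 at 1.49 and PLEKHG1 at 3.27, and most others lie between 0 and 1.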

How the data were processed

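The labels' protocols give TRIzol extraction of total RNA and the TruSeq kit, and each line has 1 library. kallisto 0.44.0, DESeq2 1.48.2 and GRCh38 appear in the submitters' processing notes, with no statement of the step each served. For the annotation, the strand setting and the summing of transcripts into genes, nothing was found in those notes or the labels. The count table the authors deposited holds whole numbers, taken here to be each gene's estimated counts, a unit that rests on the values and the naming of kallisto. A second deposited table holds log2 values, called variance-stabilised in its name, and served only as an alternative scale. No column was left unmapped.

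The members and lists were chosen with earlier results of these data known. CPM and log2 CPM (prior count 2) came from those counts and TMM factors, in edgeR 4.0.16 under R 4.3.3. Scans fitted slopes over 12 lines, leaving out the subclones, for genes with at least 10 counts in at least 3 lines, by the quasi-likelihood test of edgeR. Calls had a Benjamini-Hochberg adjusted p under 0.05, and genes used in a level were not tested against it. The fit was tested on simulated data. Named genes were the members, list genes, and, for each member with at least 1 CPM in at least 3 lines, the 3 genes of highest r with it. Genes named near the ULBP cluster were chosen after their values were seen. List genes not in the count table were RAET1L, CD70 and HLA-G, and they were not analysed here. A scan on an MHC class I score and 2 further list genes are not reported here. Ratios within pairs carry exact conditional binomial intervals. Alternatives tried were size factors from DESeq2, its own test (DESeq2 1.42.0), limma 3.58.1 on the deposited log2 values, no filter, other sets of lines, and removal of each library's trend with GC content and length (splines with 4 degrees of freedom over 6070 stable genes). Of the symbols, 98.75% matched 1 gene of GENCODE 29 and 85.73% had a length. Among 91 pairs of libraries the smallest chi-square per gene was 257, so none was treated as a copy.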

Additional observations from a re-analysis of the deposited data

How the results depend on the processing

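Of the 8 members tested, 2 passed on the mesenchymal score. There were 3 with DESeq2 (NCR3LG1 joined), 3 with no filter and 3 with all 14 lines. RAET1G, filtered out of the main fit, was tested in the last 2 settings and joined in both. There was 1 with the subclones in place of their parents, and 0 without SK-N-SH and GI-ME-N, the 2 lines farthest from the median score. Leaving out each line in turn gave 1 (without SK-N-SH) to 2. On MYCN 1 passed, NCR3LG1, and 1 without its 2 farthest lines, SK-N-SH and SK-N-AS, where it was MICA (falling, adjusted p = 0.0499, edgeR) and not NCR3LG1. There were 3 under DESeq2, 2 with all 14 lines, 0 with the subclones in place of their parents, 0 without GI-ME-N and Lan-6, and 0 without SK-N-SH and GI-ME-N. Leaving out each line in turn gave 0 to 3, with 2 without Lan-6 and 3 without SK-N-AS. On TERT 0 passed under every alternative run.

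Over all genes, 1029 passed on the mesenchymal score, against 2907 with DESeq2, 567 with the subclones, 16 without the 2 farthest lines, 623 without GI-ME-N and Lan-6, and 474 (without GI-ME-N) to 1641 (without Lan-6) leaving out each line. On MYCN 618 passed, against 3226 with DESeq2, 380 with limma, 1285 with all 14 lines, 1430 without the 2 farthest lines, 169 without GI-ME-N and Lan-6, 0 without SK-N-SH and GI-ME-N, 0 with the subclones, and 4 (without IMR32) to 1565 (without SK-N-AS) leaving out each line. On TERT 0 passed, against 360 with DESeq2 and at most 3 otherwise.

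Leaving out SK-N-SH and GI-ME-N turned the sign of 11 of 24 slopes of members and of 13 of the 36 correlations between members. The MICA slope was then -0.040 on the mesenchymal score and 0.27 on MYCN, the MICB slope was 0.25 on MYCN, and the r of MICB and RAET1G was -0.16. Leaving out this pair (other than for the mesenchymal score) and leaving out GI-ME-N and Lan-6 were chosen after seeing the data. The cause of these changes was not tested. How often the slopes or correlations of other genes changed sign was not counted, so these counts do not set the members apart.

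With DESeq2's size factors all 124 levels compared stayed within their counting intervals. With the GC and length trend removed 105 did, and 6 moved by over 1.5 times, all in GI-ME-N or Lan-6. No paired analysis was possible because the labels give 1 group of lines, in which no replicate number links any libraries. Depth limits RAET1E, RAET1G and, in the lowest lines, ULBP1, ULBP2, ULBP3 and MICB, which rest on 0 to 5 counts there.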

Other observations

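Many of the genes most like ULBP1 and ULBP3 over the 12 lines lay together on another chromosome. Of the 50 genes with the highest r, 21 for ULBP1 and 25 for ULBP3 were on chromosome 11, and 21 and 22 of these started beyond 100 Mb, while chromosome 11 held 5.43% of the 12532 candidates. For MICA, MICB, ULBP2, PVR and NCR3LG1 between 1 and 4 of the 50 were on chromosome 11. The mean centred log2 CPM of 137 candidate genes beyond 100 Mb of that chromosome was highest in SK-N-BE(2)C (0.81), IMR32 (0.62), SK-N-FI (0.49) and SK-N-SH (0.43) and lowest in NGP (-0.60), IMR5-75 (-0.58) and SK-N-AS (-0.54). Over the 12 lines it had r = 0.72 with ULBP1 and 0.80 with ULBP3, and over all 14 lines 0.19 and 0.44. IMR5-75, with the most ULBP1 and ULBP3 of all lines, was among the lowest for these genes. The region was chosen after the values were seen, and no test was made.

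KLRD1, which encodes CD94, the partner of NKG2A on natural killer cells, was detected in all 14 lines, lowest in SK-N-SH (3.38 CPM) and highest in SK-N-FI (10.0 CPM). Of the other 11 leukocyte markers, KLRK1 (NKG2D itself) reached 1 CPM in 7 lines and at most 1.97 CPM, CD226 (DNAM-1) in 6 lines and at most 2.71 CPM, CD14 in 3 and at most 2.37 CPM, and GNLY in 2 and at most 2.69 CPM. NCR1, NCR3, NKG7, PRF1, GZMB and CD3E stayed at or below 0.508 CPM in all 14 lines. PTPRC, which encodes CD45, had 469.6 CPM in SK-N-AS, where the next highest line had 2.91 CPM, while CD3E had 0 counts in SK-N-AS. How these transcripts arose was not tested.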
